A study of Arabidopsis thaliana with 12 samples.

Results

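The type-A response regulators of Arabidopsis thaliana were chosen by name, ARR3 to ARR9 and ARR15 to ARR17, 10 genes in all. Of these, 8 had a row among the 19522 genes measured, and ARR15 (AT1G74890) and ARR17 (AT3G56380) are not analysed here. Messenger RNA had been sequenced from whole seedlings of ein2-5, a loss-of-function allele of the ethylene signalling gene EIN2, and of the wild type Col-0. The 4 groups were ein2-5 seedlings given 15 mM glucose for 2 h (ein2-5 +Glc), ein2-5 seedlings without it (ein2-5 −Glc), Col-0 seedlings given 15 mM glucose for 2 h (Col-0 +Glc) and Col-0 seedlings without it (Col-0 −Glc), with n = 3 libraries each. The groups follow the sample titles, and a treatment entry names glucose in the +Glc libraries only, but a general protocol line that is the same for all 12 libraries names glucose too. All seedlings, 4 days old, had been grown without glucose in liquid medium. Nothing in the labels states that replicates were separate cultures, and p-values therefore measure only a spread between libraries that may be technical.

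Cytokinin is sensed at membranes by histidine kinases, which pass a phosphate through phosphotransfer proteins to the type-B response regulators, transcription factors in the nucleus. Type-B regulators switch on the type-A genes within minutes of cytokinin arrival, and the type-A proteins, which hold a receiver domain but no DNA-binding domain, dampen the pathway in return. EIN2 carries the ethylene signal from the receptors at the endoplasmic reticulum to the transcription factor EIN3, which is known to bind and repress several type-A promoters, so the family is a known meeting point of the 2 hormones. By sequence the members form pairs of close relatives: ARR3 and ARR4, ARR5 and ARR6, ARR7 and ARR15, ARR8 and ARR9, and ARR16 and ARR17.

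Coordinates follow the RefSeq annotation of TAIR10.1. ARR3 (AT1G59940) lies at chr1:22065617-22067233 and ARR4 (AT1G10470) at chr1:3441988-3444360, both on the minus strand, and ARR7 (AT1G19050) at chr1:6577833-6579314, also on the minus strand. ARR8 (AT2G41310) at chr2:17221840-17224880 and ARR16 (AT2G40670) at chr2:16969673-16972113 are on the plus strand. ARR5 (AT3G48100) is on the minus strand at chr3:17758427-17760950, ARR9 (AT3G57040) on the plus strand at chr3:21109059-21111567, and ARR6 (AT5G62920) on the minus strand at chr5:25252007-25254318. Each measured member has 5 or 6 exons in its longest transcript. ARR6 shares 348 bases with the antisense gene AT5G62910, which was measured at 17.7 to 35.95 CPM (reads scaled to 1000000 per library). ARR8 and ARR9 share 299 and 231 bases with antisense RNA genes that have no row. The strand setting of the counting is not given in the sources used here, so reads in these overlaps cannot be told apart.

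The 300 bases before the annotated start are shown for the 5 members that were called in at least 1 comparison below by limma and there also with TMM scaling, edgeR and DESeq2. They are ARR7 and ARR16, higher with glucose in Col-0, ARR9, lower with it, ARR4, higher in ein2-5 without glucose, and ARR8, higher in ein2-5 with glucose. Type-B regulators are known to bind short sites with the core AGATT or AGATC, and capitals mark these letters on either strand, so that AATCT and GATCT, read on the other strand, are marked too. Each sequence is from RefSeq, build TAIR10.1, written 5′ to 3′ along the strand of its gene.
ARR7 (chr1:6579315-6579614, minus strand): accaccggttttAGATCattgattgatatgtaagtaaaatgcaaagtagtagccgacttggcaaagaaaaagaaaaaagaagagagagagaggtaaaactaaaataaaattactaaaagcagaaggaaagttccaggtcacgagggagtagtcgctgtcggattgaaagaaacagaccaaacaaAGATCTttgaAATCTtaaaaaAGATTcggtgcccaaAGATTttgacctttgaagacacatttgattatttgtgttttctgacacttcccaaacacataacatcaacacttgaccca
ARR16 (chr2:16969373-16969672, plus strand): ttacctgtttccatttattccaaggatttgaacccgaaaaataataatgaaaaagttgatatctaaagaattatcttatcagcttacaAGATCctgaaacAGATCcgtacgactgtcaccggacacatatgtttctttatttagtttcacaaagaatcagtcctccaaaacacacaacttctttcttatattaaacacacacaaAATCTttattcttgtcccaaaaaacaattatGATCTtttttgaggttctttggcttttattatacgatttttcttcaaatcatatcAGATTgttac
ARR9 (chr3:21108759-21109058, plus strand): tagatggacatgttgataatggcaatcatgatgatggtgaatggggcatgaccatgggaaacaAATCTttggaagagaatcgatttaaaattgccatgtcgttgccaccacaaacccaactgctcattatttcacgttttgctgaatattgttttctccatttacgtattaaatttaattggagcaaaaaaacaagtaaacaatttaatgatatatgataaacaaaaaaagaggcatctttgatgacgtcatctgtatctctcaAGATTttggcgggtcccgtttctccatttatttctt
ARR4 (chr1:3444361-3444660, minus strand): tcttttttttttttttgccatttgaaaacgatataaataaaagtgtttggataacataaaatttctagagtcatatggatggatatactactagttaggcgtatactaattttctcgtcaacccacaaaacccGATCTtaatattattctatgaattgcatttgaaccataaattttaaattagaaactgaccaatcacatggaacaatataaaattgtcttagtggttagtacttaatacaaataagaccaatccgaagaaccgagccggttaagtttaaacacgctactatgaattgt
ARR8 (chr2:17221540-17221839, plus strand): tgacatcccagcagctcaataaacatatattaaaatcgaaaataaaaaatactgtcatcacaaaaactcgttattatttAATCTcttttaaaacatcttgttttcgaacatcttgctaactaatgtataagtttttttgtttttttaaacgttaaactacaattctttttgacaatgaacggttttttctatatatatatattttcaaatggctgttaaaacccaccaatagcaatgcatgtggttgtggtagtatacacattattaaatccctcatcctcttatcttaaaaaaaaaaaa

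ARR7 held 6 matches, including an AGATC and a GATCT that overlap in AGATCT, and 1.6% of the 27437 upstream windows of the same length held at least as many. ARR16 held 5 matches (4.79% of windows held as many) and ARR9 held 2 (50.2%), while ARR4 and ARR8 held 1 each, and 79.9% of all windows held at least 1. The other measured members held 3 in ARR6 (25.7%), 2 in ARR5 and 1 in ARR3. TACAT, letters that resemble the core of an EIN3 site, had 2 matches in ARR3 and 1 in each of ARR5, ARR7 and ARR8 on either strand, and 58.9% of all windows held at least 1. These matches describe the letters and say nothing of binding in these seedlings.

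EIN2 lay at 48.5 to 50.3 CPM in ein2-5 +Glc and at 43.4 to 60.2 CPM in ein2-5 −Glc, against 105 to 118 CPM in Col-0 +Glc and 125 to 137 CPM in Col-0 −Glc, so every library followed its genotype label. Between 11470134 and 17461274 reads per library stood behind the values, and the members held between 16 reads (ARR3) and 1096 reads (ARR4) in a library. The summed level of 12 seed storage and late embryo genes was 145 to 3437 CPM in ein2-5 +Glc and 778 to 1353 CPM in ein2-5 −Glc, against 1.49 to 3.26 CPM in Col-0 +Glc and 1.15 to 161 CPM in Col-0 −Glc. For these genes Col-0 −Glc 1, at 161 CPM, stood far above the other Col-0 libraries. Libraries ein2-5 +Glc 2 and ein2-5 +Glc 3 stood at 2200 and 3437 CPM, above every ein2-5 −Glc library. The remaining library ein2-5 +Glc 1, at 145 CPM, lay below every ein2-5 −Glc library. The 3 high libraries, called below those that stood apart in seed genes, were left out together as an alternative. That leaves ein2-5 +Glc with 1 library, its lowest in seed genes, assumed to vary like the others. Which ein2-5 +Glc libraries are unusual cannot be told from these values. The summed level of 8 root genes was 4821 to 5744 CPM in ein2-5 +Glc and 4691 to 5052 CPM in ein2-5 −Glc, against 1640 to 1852 CPM in Col-0 +Glc and 1553 to 1854 CPM in Col-0 −Glc. The 4 green shoot genes ran the other way, at 19634 to 24001 CPM in ein2-5 +Glc and 21696 to 30985 CPM in ein2-5 −Glc, against 31249 to 32754 CPM in Col-0 +Glc and 35862 to 39009 CPM in Col-0 −Glc. In whole seedlings fewer cells of a type and less RNA per cell cannot be told apart, and the part of these levels in the genotype differences below was not tested.

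Glucose in Col-0 raised ARR7, ARR16 and ARR3 and lowered ARR9, so that 3 of the 8 measured members rose and 1 fell, while ARR4, ARR5, ARR6 and ARR8 did not pass the test. Across all genes 40.6% were called higher and 19.7% lower in this comparison, so the number of members called was no larger than the background. The test was limma on log2(CPM + 1), where differences of low genes are understated, with Benjamini-Hochberg adjustment over all genes and a threshold of 0.05.

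ARR7, a repressor of cytokinin output known from the shoot apical meristem, had 18.2, 14.3 and 7.28 CPM in Col-0 +Glc, against 3.64, 4.18 and 2.06 CPM in Col-0 −Glc. Every library with glucose was above every library without it. The mean was 13.2 ± 5.51 CPM in Col-0 +Glc and 3.30 ± 1.10 CPM in Col-0 −Glc (SD, n = 3 each), 4.02 times as high, and the log2 difference was 1.68 ± 0.34 (SE; limma adjusted p = 0.000766). The summed level of the shoot meristem genes STM and CLV1, the 2 of 4 meristem markers with a row, moved in the same direction. This sum was 372 to 424 CPM in Col-0 +Glc and 196 to 220 CPM in Col-0 −Glc, and its part in the result was not tested.

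ARR16, a member known from the stomatal lineage, had 3.93, 3.62 and 3.01 CPM in Col-0 +Glc, against 2.14, 1.78 and 1.83 CPM in Col-0 −Glc. The groups did not overlap, and the mean was 1.84 times as high with glucose. Its log2 difference was 0.63 ± 0.16 (SE; limma adjusted p = 0.00343).

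ARR9, known as less responsive to cytokinin than most of its relatives, had 14.5, 10.9 and 9.29 CPM in Col-0 +Glc, against 20.2, 20.4 and 16.8 CPM in Col-0 −Glc. It was lower in every library with glucose. The log2 difference was −0.70 ± 0.20 (SE; limma adjusted p = 0.00892), and its close relative ARR8 gave −0.14 ± 0.17 (limma adjusted p = 0.497).

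ARR3, which with ARR4 is known to set circadian period, had 3.15, 3.47 and 1.94 CPM in Col-0 +Glc, against 1.71, 2.12 and 1.66 CPM in Col-0 −Glc. Here the groups overlapped, since the third library with glucose lay below the highest without it. On the log2 scale the difference was 0.43 ± 0.17 (SE; limma adjusted p = 0.0467). The call was lost with TMM scaling (0.28, limma adjusted p = 0.172), in edgeR (adjusted p = 0.158) and in DESeq2 (adjusted p = 0.253), and in 8 of the 12 fits that left out a library. Those fits gave adjusted p-values up to 0.185 in limma.

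ARR6, a fast cytokinin response gene, had 13.8, 9.63 and 4.48 CPM in Col-0 +Glc, against 6.64, 5.04 and 1.72 CPM in Col-0 −Glc. The ranges overlapped, and the log2 difference of 0.93 ± 0.40 (SE) missed the threshold (limma adjusted p = 0.0587). Without Col-0 +Glc 3 it was 1.33 (limma adjusted p = 0.00996), and without Col-0 −Glc 3 it was 0.49 (limma adjusted p = 0.278). Without the 3 libraries that stood apart in seed genes ARR6 was called higher with glucose in Col-0, and ARR3 was no longer called. ARR5, the relative most used as a cytokinin reporter, gave 0.42 ± 0.31 (limma adjusted p = 0.255), and ARR4 gave 0.16 ± 0.16 (limma adjusted p = 0.408). Both ARR5 and ARR6 were higher with glucose in each same-numbered pair of Col-0 libraries. With the replicate number as a block, limma on all 12 libraries called ARR3, ARR5, ARR6, ARR7 and ARR16 higher and ARR9 lower. In that fit 42.5% of all genes were called higher and 20.7% lower. Deviations of same-numbered Col-0 libraries from the group means correlated only between −0.06 and 0.35, and these libraries were not taken as pairs. Of the 8 members 3 (ARR7, ARR9 and ARR16) had groups that did not overlap, against 70.0% of all genes. The deposited scaling places the median of all genes 0.19 above 0 on the log2 scale, and TMM scaling 0.01 above it. Of the genes called, 67.3% were higher with the deposited scaling and 50.5% with TMM. With TMM, edgeR and DESeq2 alike, ARR7 and ARR16 were called higher and ARR9 lower, against 30.6% of all genes higher and 29.9% lower with TMM.

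**Figure D1:**
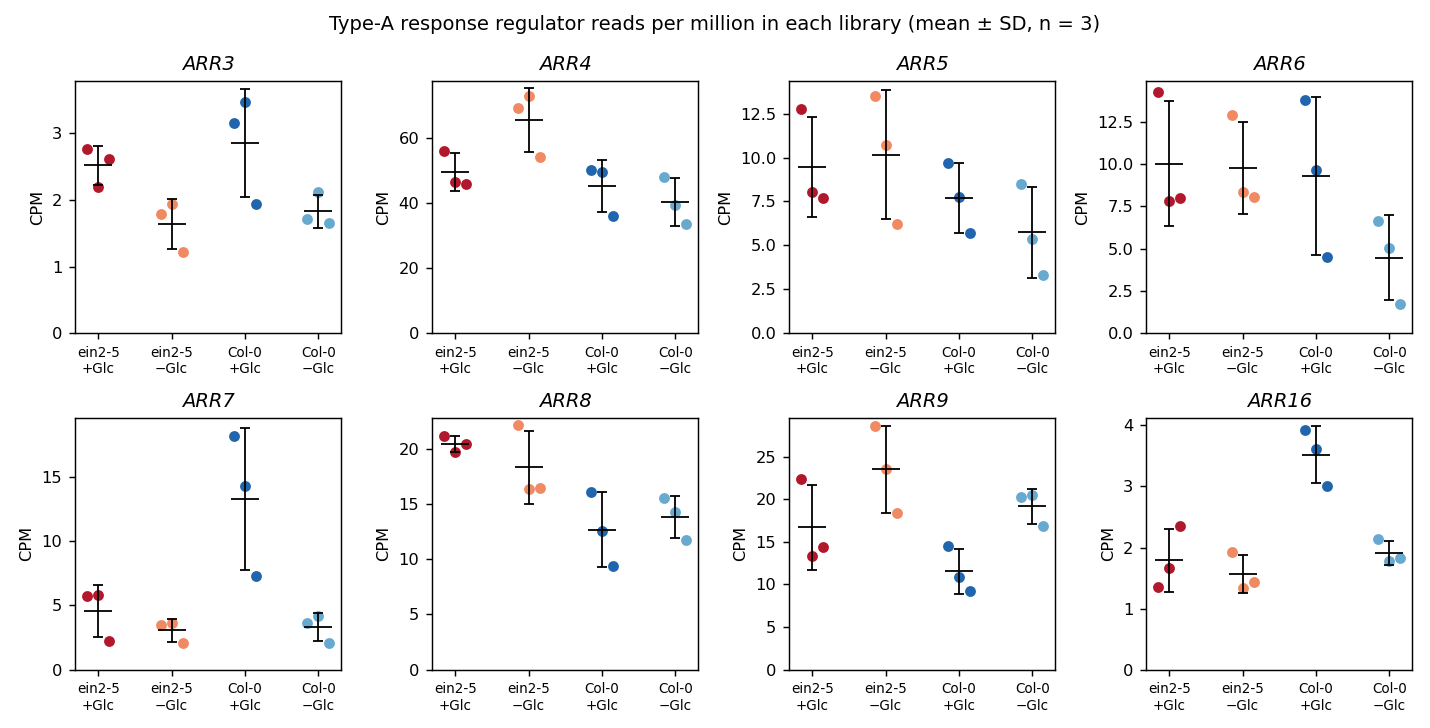
Level in CPM (y axis from 0) of the 8 measured members in each library, with groups ein2-5 +Glc, ein2-5 −Glc, Col-0 +Glc and Col-0 −Glc along the x axis; points are libraries, and bars give mean ± SD (n = 3). The 3 Col-0 +Glc libraries of ARR7 lie between 7.28 and 18.2 CPM, above the 9 others, of which the highest is 5.83 CPM.

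In ein2-5, where EIN2 is defective, no member passed the limma test for glucose. Across all genes 26.5% were called higher and 16.4% lower. At an unadjusted p under 0.05 limma had 3 members, ARR3 higher and ARR4 and ARR9 lower, whereas limma with TMM scaling, edgeR and DESeq2 each called 2 members after adjustment, ARR4 and ARR9, both lower. With TMM scaling 22.8% of all genes were called higher and 20.3% lower. Replicate numbers were also taken to pair the ein2-5 libraries of the 2 conditions. The libraries numbered 2 were not closest to each other in their deviations from the group means. A fit of the 6 ein2-5 libraries with the number as a block, added after seeing the data, called ARR4 and ARR9 lower. In this paired fit 26.6% of all genes were called higher and 16.6% lower.

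ARR4, a regulator known to bind the light receptor phytochrome B, had 56.1, 46.6 and 45.8 CPM in ein2-5 +Glc, against 69.2, 73.0 and 54.2 CPM in ein2-5 −Glc. The first library with glucose lay above the third without it, so the groups overlapped. The log2 difference was −0.39 ± 0.16 (SE; limma adjusted p = 0.0629), with TMM scaling −0.45 (limma adjusted p = 0.0300) and in the paired fit −0.39 ± 0.11 (limma adjusted p = 0.0105). It was −0.21 without the 3 libraries that stood apart in seed genes, where ein2-5 +Glc rested on library 1 alone, its highest for ARR4. In each numbered pair ARR4 was lower with glucose.

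ARR9 had 22.4, 13.3 and 14.4 CPM in ein2-5 +Glc, against 28.5, 23.6 and 18.4 CPM in ein2-5 −Glc. In each numbered pair the library with glucose was lower. On the log2 scale the difference was −0.48 ± 0.20 (SE; limma adjusted p = 0.0705), and −0.48 ± 0.12 in the paired fit (limma adjusted p = 0.00751). It was −0.05 without the 3 libraries that stood apart in seed genes. There ein2-5 +Glc rested on library 1 alone, its highest for ARR9, set against all ein2-5 −Glc libraries, so the numbered pairs were not kept.

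ARR3 had 2.76, 2.19 and 2.62 CPM in ein2-5 +Glc, against 1.78, 1.93 and 1.22 CPM in ein2-5 −Glc, and was the single member whose groups did not overlap, where 48.2% of all genes had none. Its log2 difference was 0.42 ± 0.17 (SE; limma adjusted p = 0.0643, and 0.0617 in the paired fit). ARR7 had 5.70, 5.83 and 2.27 CPM in ein2-5 +Glc, against 3.498, 3.66 and 2.05 CPM in ein2-5 −Glc. Each numbered pair was higher with glucose, and the log2 difference was 0.41 ± 0.34 (SE; limma adjusted p = 0.356, and 0.0552 in the paired fit). The remaining 4 members, ARR5, ARR6, ARR8 and ARR16, gave log2 differences between −0.06 and 0.16, with limma adjusted p-values of 0.471 or more.

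**Figure D2:**
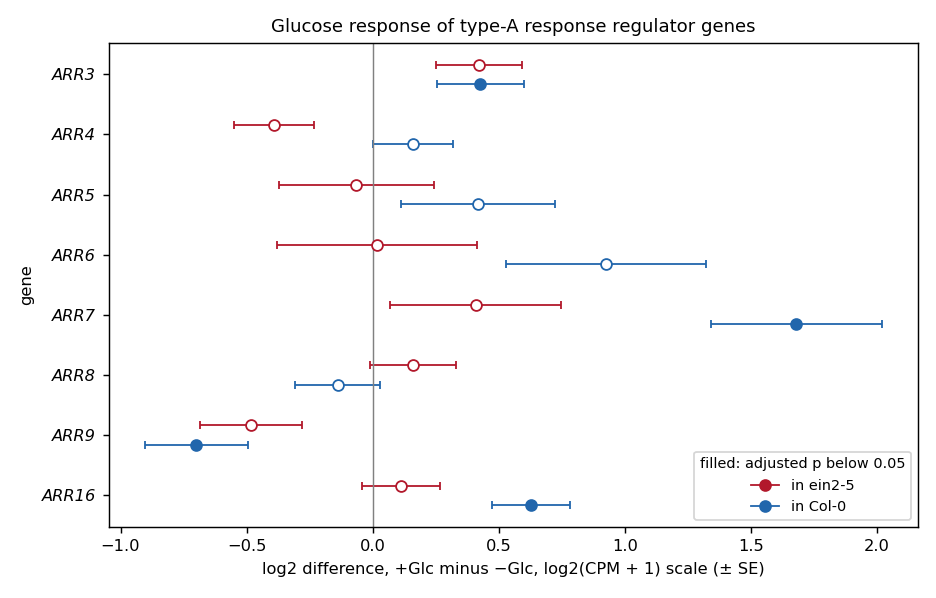
Log2 difference with glucose (+Glc minus −Glc, log2(CPM + 1) scale, x axis) of each member (y axis), ein2-5 in red above Col-0 in blue; points are estimates from n = 3 libraries per group, bars are SE and filled points have a limma adjusted p below 0.05. ARR7 stands at 0.41 in ein2-5 and 1.68 in Col-0, and the 4 filled points are all from Col-0.

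The 2 glucose responses were then set against each other directly, as the response in ein2-5 minus that in Col-0. No member passed this limma test, and 5.49% of all genes were called higher and 13.3% lower. At an unadjusted p under 0.05 limma had 3 members, ARR4, ARR7 and ARR16, all with the smaller or more negative response in ein2-5, while edgeR and DESeq2 called none after adjustment and had 1 each at an unadjusted p under 0.05. The largest difference was that of ARR7, −1.27 ± 0.48 (SE; interval at 95% from −2.31 to −0.24; limma adjusted p = 0.0823).

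ARR7 passed the limma test of the difference when ein2-5 +Glc 1 (−1.44) or Col-0 +Glc 3 (−1.62, limma adjusted p = 0.0216) was left out. A limma fit of all 12 libraries with the replicate number as a block called ARR4, ARR6 and ARR7 lower. In that fit 6.39% of all genes were called higher and 16.1% lower. ARR4 gave −0.55 ± 0.22 (SE; limma adjusted p = 0.108), and passed only without Col-0 +Glc 3 among the 12 fits that left out a library (−0.70, limma adjusted p = 0.0346). ARR16 gave −0.52 ± 0.22 (SE; limma adjusted p = 0.123), and ARR6 gave −0.91 ± 0.56 (SE; limma adjusted p = 0.290). ARR9 gave 0.22 ± 0.29 (limma adjusted p = 0.650), with falls in both genotypes. With TMM scaling 9.59% of genes were called higher and 9.19% lower. Without the 3 libraries that stood apart in seed genes the shares were 2.76% and 6.54%, and no member was called.

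Without glucose, ein2-5 seedlings had more ARR4 and ARR6 than Col-0, and no member was called lower. Thus 2 of 8 members were higher, against 35.3% of all genes called higher and 16.0% lower. With TMM scaling the shares of all genes were 26.3% and 27.3%. Of the genes called, 68.8% were higher with the deposited scaling and 49.1% with TMM.

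ARR4 had 69.2, 73.0 and 54.2 CPM in ein2-5 −Glc, against 48.0, 39.3 and 33.6 CPM in Col-0 −Glc. All 3 ein2-5 libraries were above all 3 Col-0 libraries. The log2 difference was 0.69 ± 0.16 (SE; limma adjusted p = 0.00288).

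ARR6 had 12.9, 8.33 and 8.05 CPM in ein2-5 −Glc, against 6.64, 5.04 and 1.72 CPM in Col-0 −Glc. The groups did not overlap, and the mean was 2.18 times as high in ein2-5. On the log2 scale the difference was 1.08 ± 0.40 (SE; limma adjusted p = 0.0370). This call was lost with TMM scaling (limma adjusted p = 0.0595), in edgeR (adjusted p = 0.0793) and in DESeq2 (adjusted p = 0.118). It was also lost in 5 of the 12 fits that left out a library, and without Col-0 −Glc 3, its lowest library, the log2 difference was 0.63 (limma adjusted p = 0.175). The antisense neighbour of ARR6 had 25.5 to 30.9 CPM in ein2-5 −Glc and 28.3 to 30.8 CPM in Col-0 −Glc.

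ARR5 had 13.5, 10.7 and 6.23 CPM in ein2-5 −Glc, against 8.50, 5.38 and 3.32 CPM in Col-0 −Glc. The ranges overlapped, and the log2 difference of 0.74 ± 0.31 (SE) was not called (limma adjusted p = 0.0572), but it was 1.03 without the 3 libraries that stood apart in seed genes (limma adjusted p = 0.0116). ARR8 had 22.2, 16.4 and 16.4 CPM in ein2-5 −Glc, against 15.5, 14.3 and 11.7 CPM in Col-0 −Glc, a log2 difference of 0.38 ± 0.17 (SE; limma adjusted p = 0.0788). The ranges of ARR8 did not overlap, as in ARR4 and ARR6, and the 3 members compare with 61.5% of all genes. ARR7 differed little in its means, with a log2 difference of −0.07 ± 0.34 and an interval at 95% from −0.80 to 0.66. ARR3, ARR9 and ARR16 gave −0.11, 0.26 and −0.19 on the log2 scale, none of them called.

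With glucose, ein2-5 seedlings had less ARR7 and ARR16 and more ARR8 than Col-0, so 2 members were lower and 1 higher. Of all genes, 26.1% were called higher and 20.9% lower. Since the Col-0 +Glc libraries also served in the comparison within Col-0, the 2 results on ARR7 and ARR16 share those libraries.

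ARR7 had 5.70, 5.83 and 2.27 CPM in ein2-5 +Glc, against 18.2, 14.3 and 7.28 CPM in Col-0 +Glc, with no overlap. The mean was 0.35 times that of Col-0, and the log2 difference was −1.34 ± 0.34 (SE; limma adjusted p = 0.00593). It was −1.002 and no longer called without the 3 libraries that stood apart in seed genes (limma adjusted p = 0.116), where ein2-5 +Glc rested on 1 library. The summed level of STM and CLV1 ran the same way, at 88.8 to 146 CPM in ein2-5 +Glc and 372 to 424 CPM in Col-0 +Glc, but it was also lower without glucose, at 82.6 to 98.9 CPM in ein2-5 −Glc and 196 to 220 CPM in Col-0 −Glc. Its part in the result was not tested.

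ARR16 had 1.35, 1.66 and 2.35 CPM in ein2-5 +Glc, against 3.93, 3.62 and 3.01 CPM in Col-0 +Glc. Again no ein2-5 library reached the lowest of Col-0, and the mean was 0.51 times that of Col-0. The log2 difference was −0.71 ± 0.16 (SE; limma adjusted p = 0.00258), called in every fit that left out a library and without the libraries that stood apart.

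ARR8 had 21.1, 19.7 and 20.4 CPM in ein2-5 +Glc, against 16.1, 12.6 and 9.36 CPM in Col-0 +Glc. The ein2-5 libraries lay close together and above all those of Col-0. On the log2 scale the difference was 0.67 ± 0.17 (SE; limma adjusted p = 0.00558), and without the libraries that stood apart it was 0.72 (limma adjusted p = 0.0632). ARR9, its relative, gave 0.48 ± 0.20 (limma adjusted p = 0.0670), and 0.92 without those libraries. In that fit ein2-5 +Glc rested on library 1 alone, which had 22.4 CPM of ARR9, against 13.3 and 14.4 CPM in the libraries left out. The other 4 members gave log2 differences between −0.11 and 0.26, none of them called. Of the 8 members 3 (ARR7, ARR8 and ARR16) had groups that did not overlap, against 54.7% of all genes.

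**Figure D3:**
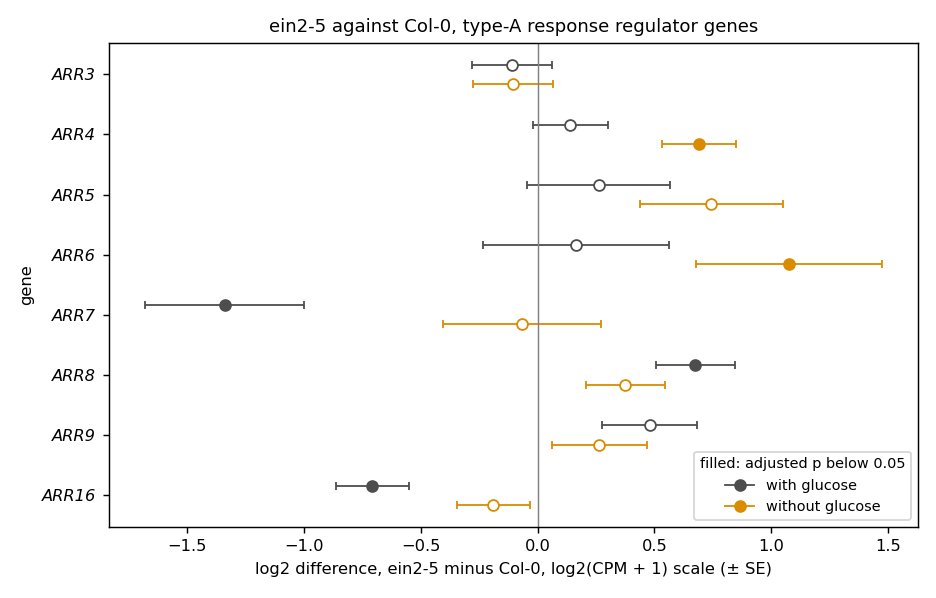
Log2 difference between genotypes (ein2-5 minus Col-0, log2(CPM + 1) scale, x axis) of each member (y axis), with glucose in grey above without glucose in orange; points are estimates from n = 3 libraries per group, bars are SE and filled points have a limma adjusted p below 0.05. ARR7 stands at −1.34 with glucose and −0.07 without it, and ARR4 at 0.14 with glucose and 0.69 without it.

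Levels of different members were compared per length, as CPM per kb of the longest transcript. ARR4 was the highest member in all 4 groups, at 24.5 ± 2.85 CPM per kb in ein2-5 +Glc, 32.5 ± 4.92 in ein2-5 −Glc, 22.4 ± 3.97 in Col-0 +Glc and 19.98 ± 3.60 in Col-0 −Glc (SD, n = 3 each). It made up 38.3% of the family's summed level per kb in ein2-5 +Glc, 44.4% in ein2-5 −Glc, 35.5% in Col-0 +Glc and 39.8% in Col-0 −Glc. ARR16 was the lowest in all 4 groups, at 0.86 ± 0.25 CPM per kb in ein2-5 +Glc, 0.76 ± 0.15 in ein2-5 −Glc, 1.70 ± 0.23 in Col-0 +Glc and 0.92 ± 0.10 in Col-0 −Glc.

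In Col-0 −Glc the order per kb was ARR4, ARR9, ARR8, ARR5, ARR7, ARR6, ARR3 and ARR16. From ARR8 down to ARR3 each neighbour in this order overlapped the next in its range of libraries, while ARR4, ARR9 and ARR16 stood clear of theirs. In ein2-5 −Glc ARR7 was the sixth, and clear of both neighbours. In Col-0 +Glc ARR7 was the second, at 14.0 ± 5.84 CPM per kb, and its range overlapped those of ARR4 and ARR9. In ein2-5 +Glc it was the sixth again, at 4.88 ± 2.14 CPM per kb, below ARR5 with overlap and above ARR3 without. The share of ARR7 in the summed level per kb was 7.49 ± 3.11% in ein2-5 +Glc, 4.37 ± 0.68% in ein2-5 −Glc, 21.1 ± 3.57% in Col-0 +Glc and 6.83 ± 1.53% in Col-0 −Glc.

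The summed level of the 8 members was 64.5 ± 11.7 CPM per kb in ein2-5 +Glc, 73.6 ± 13.6 in ein2-5 −Glc, 64.4 ± 17.8 in Col-0 +Glc and 50.4 ± 9.92 in Col-0 −Glc (SD, n = 3 each). Each group's range overlapped those of the other groups, and the closest to separate were ein2-5 −Glc, whose lowest library was at 58.7, and Col-0 −Glc, whose highest was at 59.4 CPM per kb.

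**Figure D4:**
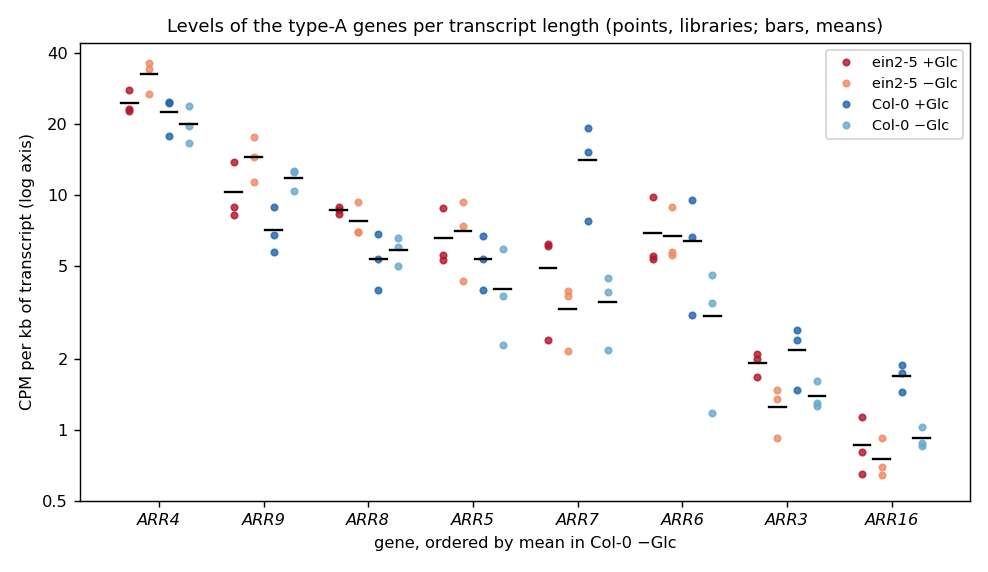
Level per transcript length (CPM per kb, log y axis) of each member, ordered along the x axis by the mean in Col-0 −Glc, in 4 colours for the 4 groups; points are libraries and bars are group means (n = 3). ARR4 has the highest mean in each group, between 19.98 and 32.5 CPM per kb, and ARR16 the lowest, between 0.76 and 1.70.

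Across the 12 libraries, which share groups and replicate numbers, ARR5 and ARR6 varied together most closely of the 28 pairs of members (Pearson r = 0.907 on log2(CPM + 1)). ARR4 and ARR5 followed at 0.852, ARR3 and ARR7 at 0.765, ARR4 and ARR6 at 0.757, and ARR7 and ARR16 at 0.737. ARR9 and ARR16 ran most in opposite directions, at −0.672. Over the same 12 libraries and 14963 genes with a mean of at least 5 CPM, AT5G50860 was the gene most like ARR7 (r = 0.986). Next came CYP706A6, a cytochrome P450 gene (AT4G12320, r = 0.968), AT2G41980 (r = 0.968), AT3G61550 (r = 0.966) and AT5G52880 (r = 0.965). CYP706A6 averaged 47.7 CPM in ein2-5 +Glc, 26.7 in ein2-5 −Glc, 137 in Col-0 +Glc and 28.9 in Col-0 −Glc. Its log2 difference with glucose in Col-0 was 2.22, against 1.68 for ARR7. The changes were smaller in AT5G50860 (0.36), AT2G41980 (0.44), AT3G61550 (0.65) and AT5G52880 (0.41). These correlations are given as descriptions only.

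The type-A genes sit at the end of a pathway of which 59 other genes were listed and 45 measured. Glucose raised 7 and lowered 15 of the 45 in ein2-5, where 26.5% of all genes were called higher and 16.4% lower, and raised 15 and lowered 13 in Col-0, where the shares of all genes were 40.6% and 19.7%. Role counts below are read against these shares. Without the 3 libraries that stood apart in seed genes, 6 rose and 10 fell in ein2-5, against 13.7% and 8.86% of all genes. The receptors split in the same way in both genotypes: AHK4, the receptor of root vascular development, rose, while AHK2 and AHK3, which act mostly in shoots, fell. AHK4 had 38.0 ± 3.65 CPM in ein2-5 +Glc and 24.3 ± 5.54 in ein2-5 −Glc, and 36.8 ± 2.22 CPM in Col-0 +Glc and 17.6 ± 1.52 in Col-0 −Glc (SD, n = 3 each). Its log2 differences were 0.64 in ein2-5 (limma adjusted p = 0.00211) and 1.03 in Col-0 (limma adjusted p = 2.04e-05). AHK2 fell by 0.76 on the log2 scale in ein2-5 and by 0.97 in Col-0, and AHK3 fell by 0.72 in ein2-5 and by 0.84 in Col-0.

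Of the 5 phosphotransfer genes measured, AHP5 fell in ein2-5 (−0.40, limma adjusted p = 0.00667) and AHP4 rose in Col-0 (1.71, limma adjusted p = 1.73e-06). In Col-0 AHP5 gave −0.05 (limma adjusted p = 0.664), but −0.26 with TMM scaling (limma adjusted p = 0.0505). There edgeR called 1 of the phosphotransfer genes lower. Of the 6 measured type-B genes, the direct activators of the type-A genes, 1 rose and 4 fell in ein2-5, and 1 rose and 3 fell in Col-0. AHP5 was no longer called in ein2-5 without the 3 libraries that stood apart (−0.33, limma adjusted p = 0.110), and of the type-B genes only ARR1 was called lower in ein2-5 in that fit. ARR1 fell to 34.6 ± 2.07 CPM in ein2-5 +Glc, against 53.9 ± 5.28 in ein2-5 −Glc, and to 25.4 ± 3.81 CPM in Col-0 +Glc, against 70.1 ± 0.71 in Col-0 −Glc (SD, n = 3 each). Its log2 differences were −0.62 in ein2-5 and −1.44 in Col-0, and their difference, 0.82 ± 0.15 (SE), passed the test (limma adjusted p = 0.00242). ARR10 rose by 0.68 on the log2 scale in ein2-5 and by 1.07 in Col-0, and ARR11 fell by 1.18 in ein2-5 and by 0.71 in Col-0. The ARR11 difference in ein2-5 was −0.50 without those libraries (limma adjusted p = 0.0637).

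The KMD F-box proteins mark type-B regulators for degradation, and of 3 measured genes 2 fell in ein2-5 and 3 in Col-0. KMD1 had 8.93 ± 4.81 CPM in ein2-5 +Glc and 46.3 ± 9.74 in ein2-5 −Glc, and 15.1 ± 14.4 CPM in Col-0 +Glc and 158 ± 56.8 in Col-0 −Glc (SD, n = 3 each). Its log2 differences were −2.35 in ein2-5 (limma adjusted p = 0.00402) and −3.66 in Col-0 (limma adjusted p = 6.36e-05). KMD4 fell by 1.74 on the log2 scale in ein2-5 and by 1.76 in Col-0.

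Among 11 measured genes of cytokinin synthesis, 2 rose and 2 fell in ein2-5, and 5 rose and 2 fell in Col-0. LOG8, one of the enzymes that release active cytokinin from its nucleotide, rose by 0.55 on the log2 scale in ein2-5 and by 1.73 in Col-0, whereas its relative LOG1 fell by 0.85 in ein2-5 and by 0.69 in Col-0. CYP735A2, which makes trans-zeatin precursors, rose by 0.72 in ein2-5 and by 0.56 in Col-0, where the call was lost in DESeq2 (adjusted p = 0.0588).

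Of 8 measured genes of breakdown and conjugation, 2 fell and none rose in ein2-5, and 2 rose and 1 fell in Col-0. CKX7, a cytosolic cytokinin oxidase, had 26.9 ± 4.43 CPM in ein2-5 +Glc and 21.5 ± 3.66 in ein2-5 −Glc, and 26.1 ± 4.28 CPM in Col-0 +Glc and 5.29 ± 0.30 in Col-0 −Glc (SD, n = 3 each). Its log2 differences were 0.31 in ein2-5 (limma adjusted p = 0.110) and 2.096 in Col-0 (limma adjusted p = 7.44e-08). CKX4, another cytokinin oxidase, gave −0.05 in ein2-5 (limma adjusted p = 0.805) and 1.68 in Col-0 (limma adjusted p = 2.54e-07), where its mean without glucose was 0.28 CPM, near the value of 3 reads. The glucosyltransferase gene UGT85A1 fell by 0.76 in ein2-5 and by 0.90 in Col-0, and UGT76C2 fell by 0.78 in ein2-5 and gave −0.18 in Col-0 (limma adjusted p = 0.292). UGT76C2 was called lower in Col-0 with TMM scaling (−0.38, limma adjusted p = 0.0303), in edgeR (−0.40, adjusted p = 0.0268) and in DESeq2 (−0.41, adjusted p = 0.0228).

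Of the 6 cytokinin response factors, AP2-type transcription factors, 2 rose and 1 fell in ein2-5 and 4 rose in Col-0. CRF2 rose by 1.12 on the log2 scale in ein2-5 and by 1.86 in Col-0, and CRF3 by 0.81 in ein2-5 and by 1.72 in Col-0. Of the 3 transport genes, ABCG14, which exports cytokinin from root cells for transport to the shoot, rose by 0.33 in ein2-5 and by 1.02 in Col-0. The ABCG14 call in ein2-5 was lost with TMM scaling (limma adjusted p = 0.0605), in edgeR (adjusted p = 0.0601), in DESeq2 (adjusted p = 0.101) and without the 3 libraries that stood apart (limma adjusted p = 0.128). PUP14, an importer, fell by 1.01 in ein2-5 and by 0.74 in Col-0, and ENT3 gave −0.34 in ein2-5 (limma adjusted p = 0.0515) and fell by 0.96 in Col-0. In ein2-5 ENT3 was called lower with TMM scaling (−0.39, limma adjusted p = 0.0367), in edgeR (adjusted p = 0.0319) and in DESeq2 (adjusted p = 0.0251).

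**Figure D5:**
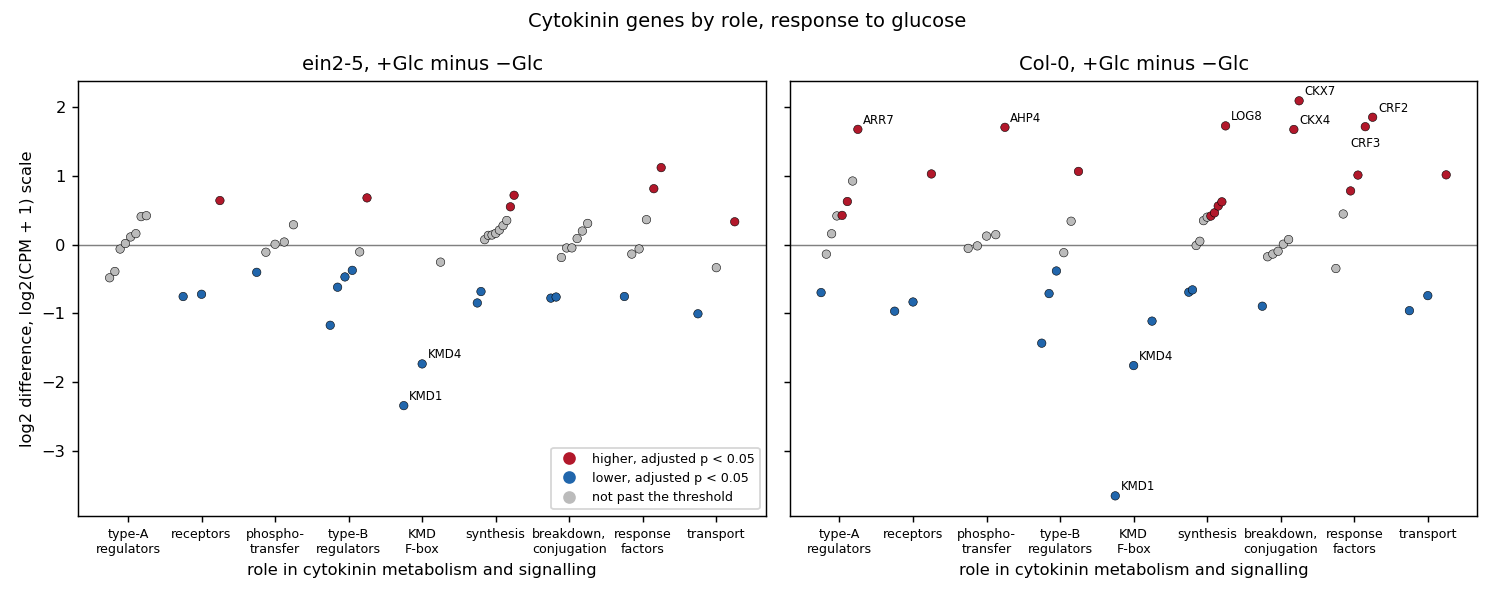
Log2 difference with glucose (+Glc minus −Glc, log2(CPM + 1) scale, y axis) of the 8 measured type-A genes and the 45 measured pathway genes grouped by role (x axis), in ein2-5 on the left and Col-0 on the right; each point is a gene, red for higher and blue for lower at a limma adjusted p below 0.05, grey otherwise. The points farthest from 0 are named, and the lowest is KMD1 in both genotypes, at −2.35 in ein2-5 and −3.66 in Col-0.

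Between the genotypes, 11 of the 45 pathway genes were called higher and 12 lower in ein2-5 +Glc than in Col-0 +Glc, and 18 higher and 7 lower in ein2-5 −Glc than in Col-0 −Glc. Of all genes, 26.1% and 20.9% were called in these directions in ein2-5 +Glc, and 35.3% and 16.0% in ein2-5 −Glc. Without the 3 libraries that stood apart in seed genes, 6 were higher and 5 lower with glucose, against 13.9% and 7.77% of all genes. With TMM scaling 15 were higher and 11 lower without glucose, against 26.3% and 27.3% of all genes. The log2 differences of ARR1 had opposite signs in these comparisons, 0.44 with glucose (limma adjusted p = 0.00412) and −0.38 without it (limma adjusted p = 0.00881). Its fellow activator gene ARR10 was higher in ein2-5 in both, by 0.36 with glucose (limma adjusted p = 0.0216) and by 0.75 without it (limma adjusted p = 0.000176). Without those 3 libraries the differences with glucose were 0.48 for ARR1 (limma adjusted p = 0.0511) and 0.41 for ARR10 (limma adjusted p = 0.131), and neither was called. AHP4 gave 0.30 with glucose (limma adjusted p = 0.161) and was higher by 1.72 in ein2-5 without it (limma adjusted p = 5.34e-06). The conjugation gene UGT85A1 was lower in ein2-5 in both, with log2 differences of −1.30 with glucose and −1.43 without it. The green shoot genes above were also lower in ein2-5, and their part in the result was not tested.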

How the data were processed

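Per the labels and the submitters' processing notes, reads of 12 libraries were aligned with TopHat to TAIR10 and counted with HTSeq, with no versions given. The deposited values are in CPM, a unit read from the values: each column sums to 1000000 over 19522 genes, and 100% of 234264 values were whole multiples of 1 read within 0.01. Recovered depth was 11470134 to 17461274 reads per library, and 3 reads, the floor, were 0.172 to 0.262 CPM. The lowest maximum of a gene was 1.06 CPM, so low genes had been removed. No value column was left unused.

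Since the table held CPM and not counts, log2(CPM + 1) was tested with limma-trend (limma 3.58.1, R 4.3.3), 1 mean for each of 4 groups, all 12 libraries in 1 fit, no filter, Benjamini-Hochberg adjustment over all genes and a threshold of 0.05. Alternatives were TMM scaling, edgeR 4.0.16 and DESeq2 1.42.0 on recovered reads, a pseudocount of 0.5, a mean of at least 1 CPM, a replicate block, only the compared groups, each library left out in turn, and 3 libraries left out together. Of the tests, only limma-trend was tried on simulated data, and only for glucose in Col-0. Transcript lengths, coordinates and upstream sequence came from RefSeq TAIR10.1, joined by locus code (19352 matched, 170 not). Its symbols for ARR5 and ARR8 are RR5 and RR3.

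Replicate numbers were taken as pairing samples only between the 2 ein2-5 groups, since a number's deviations from the group means correlated at 0.56, 0.12 and 0.43 there. For number 2 this was below the 0.18 of ein2-5 −Glc 2 with ein2-5 +Glc 3. Same-numbered libraries of Col-0 +Glc and ein2-5 −Glc, groups not compared here, also correlated positively, at 0.36, 0.08 and 0.21. The values therefore do not single out the 2 ein2-5 groups. The paired fit was added after seeing the data. The members, gene lists and alternatives were chosen with earlier results of these data known. All members are named, and of the other cytokinin genes the receptors and, per role and genotype, the 2 largest called glucose differences. The other genes called for the difference of the responses were added after their values were seen.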

Additional observations from a re-analysis of the deposited data

Results flagged for a closer look

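In 13 of the 45 measured cytokinin genes outside the family, the response to glucose differed between ein2-5 and Col-0 by the limma test of the difference itself (response in ein2-5 minus response in Col-0, log2 scale, adjusted over all genes). The difference was positive in 3 and negative in 10, against 5.49% and 13.3% of all genes. CRF5, CRF6, ARR14 and KMD2 are named here after their values were seen.

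The negative differences were those of CKX7 at −1.79 (adjusted p = 0.00018), CKX4 at −1.73 (adjusted p = 0.000127), CRF6 at −1.54 (adjusted p = 0.0027), AHP4 at −1.42 (adjusted p = 0.00169), LOG8 at −1.18 (adjusted p = 9.6e-05) and CRF5 at −1.08 (adjusted p = 0.0385), followed by CRF3 at −0.90 (adjusted p = 0.0151), ARR14 at −0.81 (adjusted p = 0.0385), ABCG14 at −0.68 (adjusted p = 0.0183) and UGT76C2 at −0.60 (adjusted p = 0.0498). CRF6, a cytokinin response factor, was called in opposite directions, with a log2 difference of −0.76 in ein2-5 (limma adjusted p = 0.00881) and 0.78 in Col-0 (limma adjusted p = 0.00427). Its fall in ein2-5 was −0.21 without the 3 libraries that stood apart in seed genes (limma adjusted p = 0.368).

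Positive differences, from a weaker fall in ein2-5, were those of KMD2 at 0.86 (adjusted p = 0.0143), ARR1 at 0.82 (adjusted p = 0.00242) and ENT3 at 0.63 (adjusted p = 0.0302). KMD2 gave −0.26 in ein2-5 (limma adjusted p = 0.194) and fell by 1.11 in Col-0.

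Without the 3 libraries that stood apart in seed genes, 2 differences were called positive and 6 negative, against 2.76% and 6.54% of all genes. The calls lost there were those of ABCG14 (limma adjusted p = 0.145), ENT3 (0.206), CRF5 (0.161), ARR14 (0.367) and UGT76C2 (0.220). The ARR14 and UGT76C2 calls were also lost with TMM scaling (−0.67, limma adjusted p = 0.0763, for ARR14 and −0.46, limma adjusted p = 0.122, for UGT76C2), in edgeR and in DESeq2.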

How the results depend on the processing

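With TMM scaling, edgeR and DESeq2 on recovered reads, glucose in ein2-5 had 2 members called lower, against 0, and ein2-5 −Glc over Col-0 −Glc had 1 higher, against 2. DESeq2 alone gave 2 higher, against 1, for ein2-5 +Glc over Col-0 +Glc. The replicate block over all 12 libraries gave 5 higher, against 3, for glucose in Col-0, where it called 42.5% of all genes higher. For glucose in ein2-5 the block gave 2 higher (ARR3 and ARR7) and 2 lower (ARR4 and ARR9), against 0 each. There it called 28.1% of all genes higher and 18.0% lower. The paired fit of the 2 ein2-5 groups gave 0 higher and 2 lower. Between genotypes the block gave 2 higher with glucose (ARR8 and ARR9), where 27.1% of all genes were called higher. Without glucose the block gave 4 higher (ARR4, ARR5, ARR6 and ARR8), where 36.9% of all genes were called higher. For the difference of the responses the block gave 3 lower, against 0, where 16.1% of all genes were called lower. The libraries share only a number. Same-numbered deviations correlated between 0.12 and 0.56 in the 2 ein2-5 groups and between −0.26 and 0.36 elsewhere. Not every library was closest to its own number, in the ein2-5 groups or elsewhere. ARR5, ARR6 and ARR8 were highest in the library numbered 1 of all 4 groups. ARR4, ARR5 and ARR7 were lowest in the library numbered 3 of all 4 groups. Of the 28 pairs of members, 22 had deviations from the group means that correlated above 0.5. The block with TMM scaling or with edgeR, added after seeing the data, gave 2 lower for glucose in Col-0, 1 higher and 2 lower for glucose in ein2-5, 2 higher in ein2-5 +Glc and 1 lower for the difference. Without the 3 libraries that stood apart in seed genes, 1 member was lower in ein2-5 +Glc, against 2. For the pathway genes between genotypes, that setting gave 6 higher and 5 lower with glucose, against 11 and 12, and TMM gave 11 lower without glucose, against 7.

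Leaving out 1 library at a time gave, for glucose in ein2-5, 0 to 1 higher and 0 to 2 lower, for ein2-5 −Glc over Col-0 −Glc 1 to 3 higher, for ein2-5 +Glc over Col-0 +Glc 1 to 2 higher, and for the difference 0 to 2 lower. The pseudocount and the filter changed no count by more than 1.5 times. Signs turned only where limma had made no call. ARR4 for glucose in Col-0 was −0.0478 with TMM (also with the block), −0.0470 in edgeR, −0.0488 in edgeR with the block and −0.0579 in DESeq2. ARR6 for glucose in ein2-5 was −0.0387 with TMM (also with the block), −0.0087 in edgeR, −0.0379 in edgeR with the block and −0.0326 in DESeq2. ARR3 for the difference was 0.0942 with TMM with or without the block, 0.13 in edgeR and DESeq2, 0.15 in edgeR with the block, 0.0080 with a pseudocount of 0.5 and 0.12 without the 3 libraries. Without those, ARR5 was 0.36 and ARR16 −0.12 for glucose in ein2-5, and ARR7 was 0.0062 between genotypes without glucose. Single libraries left out gave −0.31 to 0.0466 for ARR8 with glucose in Col-0, and for glucose in ein2-5 −0.35 to 0.15 for ARR5, −0.24 to 0.21 for ARR6 and −0.0292 to 0.23 for ARR16. Between genotypes without glucose they gave −0.19 to 0.0165 for ARR3 and −0.29 to 0.13 for ARR7. With glucose they gave −0.29 to 0.0087 for ARR3, −0.0129 to 0.22 for ARR4 and −0.23 to 0.48 for ARR6. For the difference they gave −0.19 to 0.11 for ARR3 and −0.0032 to 0.38 for ARR9. Causes were not tested. ARR3 and ARR16, at 16 to 66 reads a library, carry the largest counting error. Of the 45 pathway genes, the count for the difference was 5 higher and 8 lower with TMM scaling, and 2 and 6 without the 3 libraries, against 3 and 10.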
